A study of Mus musculus with 27 samples.

Results

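The genes of the 3 C1q subunits, C1qa, C1qb and C1qc, were followed through 27 bulk RNA-seq libraries of mouse brain. They were picked by symbol from the 55487 genes of the count table, and all 3 passed the filter on low counts, which kept 20271 genes. The libraries came from male C57Bl/6J wild-type mice that were 8 weeks old and received an infusion into the right lateral ventricle for 14 days at 0.25 µl per hour. The infusate was PBS, pCtrl or α-IgLON5#1, and the hippocampus and the cortex of the hemisphere opposite to the cannula were sequenced. α-IgLON5#1 holds antibodies against IgLON5, a neuronal cell adhesion protein, which had been purified out of plasma of a patient with anti-IgLON5 disease. pCtrl carries the label IgG, and it is described as a non-reactive human monoclonal antibody by the sample labels and as IgG from a healthy individual by the study's methods. The hippocampus gave 5 PBS, 4 pCtrl and 4 α-IgLON5#1 libraries, and the cortex gave 5, 5 and 4. Each library title carries a number, read here as the mouse, and 13 of the 14 numbers occur in both tissues under the same treatment. The study gives its group sizes for these data as numbers of mice, so the libraries of a group were taken as separate animals. The labels give neurons as the cell type, but the material was dissected tissue, and all 12 microglial marker genes examined were above the count filter.

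C1q is the recognition molecule of the classical complement pathway. It is assembled from equal numbers of A, B and C chains, the products of C1qa, C1qb and C1qc, and each chain joins a collagen-like stalk to a globular head that binds immune complexes and other ligands. Bound C1q activates the proteases C1r and C1s, which cleave C4 and C2 and so lead to cleavage of C3. In the brain the subunits are made mainly by microglia, and C1q has been tied to the tagging of synapses for removal.

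The genes lie side by side on the minus strand of chromosome 4 (GRCm38). C1qb (ENSMUSG00000036905.8) spans chr4:136880129-136886187, C1qc (ENSMUSG00000036896.5) spans chr4:136889804-136893065 and C1qa (ENSMUSG00000036887.5) spans chr4:136895917-136898803. The cluster covers 18.7 kb, holds no other annotated gene and is flanked by Ephb2 and Epha8. No annotated gene overlaps a member on either strand. The coding transcripts used to express levels per length measure 1088 bases for C1qb, 1203 for C1qc and 1040 for C1qa.

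Since the members moved together in these libraries, the sequence upstream of their starts is shown. The RefSeq promoter table (GRCm38.p6) matched 2 of the 3 members, C1qb and C1qc. Each line gives, 5′ to 3′ on the minus strand, the bases of that window that lie upstream of every annotated start of the gene. These are 250 bases at chr4:136886201-136886450 for C1qb and 99 bases at chr4:136893066-136893164 for C1qc. Capitals mark matches to the motifs searched.
C1qb: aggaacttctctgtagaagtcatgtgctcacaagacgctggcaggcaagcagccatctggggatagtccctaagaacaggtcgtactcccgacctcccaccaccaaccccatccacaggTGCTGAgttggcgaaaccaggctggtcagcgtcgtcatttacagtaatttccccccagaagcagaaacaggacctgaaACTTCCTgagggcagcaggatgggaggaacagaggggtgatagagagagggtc
C1qc: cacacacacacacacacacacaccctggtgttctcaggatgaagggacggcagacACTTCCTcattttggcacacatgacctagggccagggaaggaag

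Searched on both strands were AGGAAGT, a site of the ETS family that includes PU.1, TGCTGA, the core of the Maf site, TGANTCA, the AP-1 site, and TTCNNNGAA, the STAT site. The motifs were picked after the sequences had been seen. Both windows held the ETS motif, read as ACTTCCT, with its first base 53 bases upstream of the start in C1qb and 44 bases upstream in C1qc. Distances are counted from the most upstream annotated start, which adjoins the last base printed and for C1qb is the RefSeq start, upstream of the GENCODE start given with the gene's span. The C1qb window also held TGCTGA at 131 bases upstream. Neither held the AP-1 or the STAT motif. Of the 32851 promoter windows of 300 bases in the table, 9.35% held the ETS motif, 19.5% the Maf core, 7.81% the AP-1 motif and 8.30% the STAT motif. With each window cut to its first 250 bases, the length printed for C1qb, 7.69% held the ETS motif. Cut to the first 99 bases, the length printed for C1qc, 2.65% did. In other windows the first 99 bases need not adjoin a start as they do for C1qc, so 2.65% is not a share for stretches next to a start. A match describes letters and does not mark a bound site.

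Library totals ranged from 19385642 to 58550621 counts. The hippocampal α-IgLON5#1 libraries, at 19428512 to 32776892 counts, were shallower than those of hippocampal pCtrl, at 39479753 to 52212204. A member received 881 to 5940 counts in any library. Levels are given as TMM-normalised CPM, counts scaled to a common library size. Fold changes, standard errors (SE) and adjusted p come from edgeR's quasi-likelihood test on all 6 groups with Benjamini-Hochberg adjustment over all genes tested. A gene is called at an adjusted p under 0.05. In bulk tissue, more cells of a type and more RNA per cell cannot be told apart.

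In the hippocampus all 3 subunit genes rose 2.81 to 3.61-fold with α-IgLON5#1, over both control comparisons. C1qa, which encodes the A chain, measured 108 CPM in mouse 8, 222 in mouse 9, 157 in mouse 16 and 119 in mouse 17. The pCtrl libraries held 45.1, 48.0, 49.5 and 55.1 CPM and the PBS libraries 36.8, 40.0, 40.4, 42.9 and 49.8 CPM. Every α-IgLON5#1 library lay above every control library, while the controls overlapped. The group means were 151 ± 51.7 (SD, n = 4), 49.4 ± 4.19 (n = 4) and 42.0 ± 4.89 (n = 5) CPM. The change in C1qa was 3.06-fold against pCtrl (95% interval 2.49 to 3.76; log2 1.61, SE 0.15, edgeR adjusted p = 3.57e-07) and 3.61-fold against PBS (2.97 to 4.38; adjusted p = 4.63e-09).

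C1qb, the gene of the B chain, measured 100.5, 169.7, 118 and 94.8 CPM in mice 8, 9, 16 and 17. The pCtrl libraries held 37.0, 37.1, 40.3 and 46.0 CPM and the PBS libraries 29.1, 32.4, 35.2, 37.0 and 41.7 CPM. Again no α-IgLON5#1 library overlapped a control, and mouse 9 stood highest. C1qb rose 3.01-fold against pCtrl (2.48 to 3.64; log2 1.59, SE 0.14, edgeR adjusted p = 2.01e-07) and 3.44-fold against PBS (2.87 to 4.12; adjusted p = 3.38e-09). Among all genes tested it had the 2nd smallest p against pCtrl and the smallest against PBS.

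C1qc, the gene of the C chain, measured 90.6, 169, 122 and 87.9 CPM in the same order of mice. The pCtrl libraries held 39.3, 40.0, 42.5 and 44.9 CPM and the PBS libraries 31.5, 33.8, 35.6, 36.8 and 43.0 CPM. The groups were separate in the same way as for the other subunits. C1qc rose 2.81-fold against pCtrl (2.28 to 3.46; log2 1.49, SE 0.15, edgeR adjusted p = 8.44e-07) and 3.24-fold against PBS (2.67 to 3.94; adjusted p = 1.94e-08).

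All 3 members were thus called higher, and more than 2-fold higher, in both hippocampal comparisons. Against pCtrl 4.23% of the genes tested were called higher, 2.21% were called and more than 2-fold higher, and 6.68% were higher in every α-IgLON5#1 library than in any pCtrl library. Against PBS these shares were 3.81%, 2.56% and 4.49%. Both comparisons share the α-IgLON5#1 libraries. The mice given α-IgLON5#1 have numbers 8 to 17, whereas most controls have higher ones. Whether the number marks a time or a batch is not stated. With mice 8 to 17 alone, which leaves 2 pCtrl libraries and 1 PBS library, the log2 differences from pCtrl were 1.59 for C1qa, 1.54 for C1qb and 1.47 for C1qc, with edgeR adjusted p of 0.029, 0.029 and 0.0378. Against the lone PBS library they were 1.60, 1.52 and 1.44, and the calls were lost. A comparison with 1 control library has little power for any gene, so this loss is not particular to the members.

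**Figure D1:**
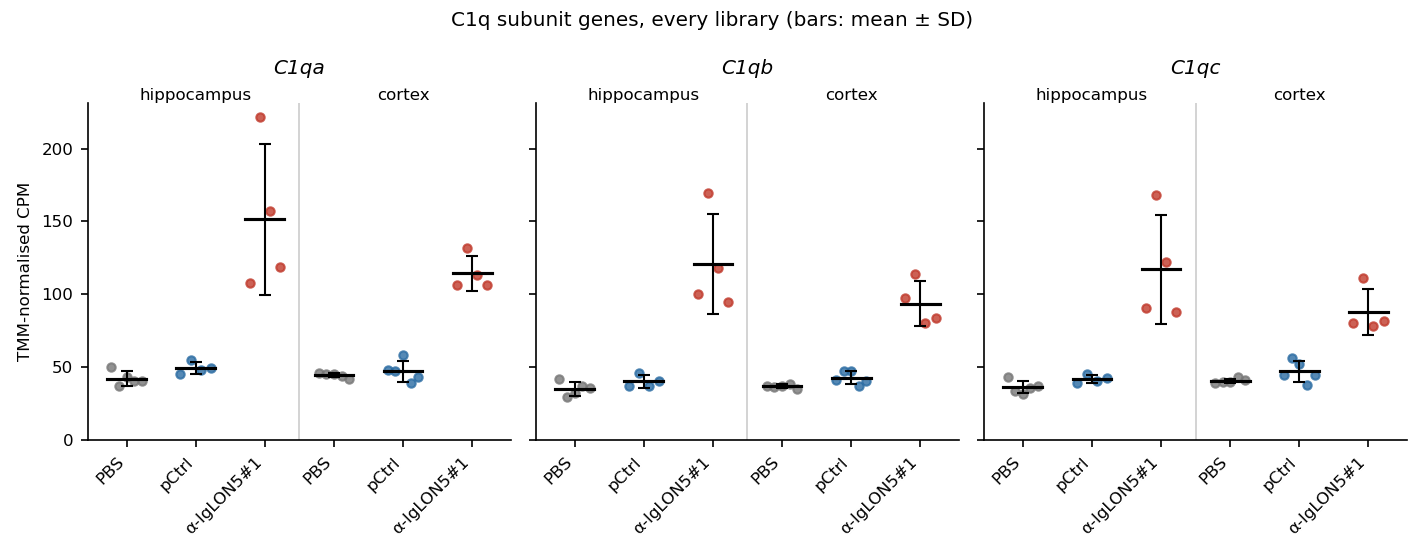
TMM-normalised CPM (vertical axis, from 0) of C1qa, C1qb and C1qc in each of the 27 libraries, 1 point a library, by tissue and infusion, with bars for mean ± SD. The α-IgLON5#1 libraries sit above all control libraries in both tissues, and the highest point of each α-IgLON5#1 group is mouse 9.

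In the cortex the subunit genes rose as well, by 1.87 to 2.57-fold. C1qa measured 106 CPM in mouse 8, 132 in mouse 9, 113 in mouse 16 and 107 in mouse 17. The pCtrl libraries held 39.0, 42.9, 47.5, 47.9 and 58.1 CPM and the PBS libraries 41.9, 43.9, 45.1, 45.5 and 46.1 CPM. The lowest α-IgLON5#1 library was far above the highest control. C1qa rose 2.42-fold against pCtrl (2.0 to 2.94; log2 1.28, SE 0.14, edgeR adjusted p = 4.95e-06) and 2.57-fold against PBS (2.12 to 3.12; adjusted p = 1.10e-06).

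Cortical C1qb measured 97.2, 114, 80.0 and 83.5 CPM in mice 8, 9, 16 and 17. The pCtrl libraries held 37.1, 40.4, 40.8, 46.9 and 47.5 CPM and the PBS libraries 34.8, 36.4, 36.7, 36.8 and 38.6 CPM. The groups did not overlap, and the PBS libraries lay within a narrow band. The rise was 2.20-fold against pCtrl (1.84 to 2.63; log2 1.14, SE 0.13, edgeR adjusted p = 8.81e-06) and 2.55-fold against PBS (2.13 to 3.05; adjusted p = 7.03e-07).

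Cortical C1qc measured 80.2, 111, 78.1 and 81.7 CPM in these mice. The pCtrl libraries held 37.8, 44.4, 44.5, 51.7 and 56.3 CPM and the PBS libraries 38.6, 39.5, 40.0, 40.7 and 43.0 CPM. Mouse 9 stood apart from the other α-IgLON5#1 libraries, which lay close together and still above every control. C1qc rose 1.87-fold against pCtrl (1.54 to 2.27; log2 0.90, SE 0.14, edgeR adjusted p = 0.000213) and 2.17-fold against PBS (1.79 to 2.64; adjusted p = 1.30e-05).

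The 3 members were called higher in both cortical comparisons, and all but C1qc against pCtrl were more than 2-fold higher. Against pCtrl 3.01% of the genes tested were called higher, 2.14% were called and more than 2-fold higher, and 3.68% were higher in all α-IgLON5#1 libraries. Against PBS the shares were 2.97%, 2.24% and 3.14%. With mice 8 to 17 alone (4 α-IgLON5#1, 3 pCtrl and 1 PBS) the log2 differences from pCtrl were 1.16, 1.06 and 0.79 for C1qa, C1qb and C1qc, and no call was kept (edgeR adjusted p = 0.0609, 0.0609 and 0.144). Against the lone PBS library they were 1.33, 1.36 and 1.20, also without a call, where 1 control library again leaves little power for any gene.

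The control antibody itself gave differences that did not pass the test. In the hippocampus pCtrl exceeded PBS by 1.18-fold for C1qa (95% interval 0.972 to 1.43), 1.14-fold for C1qb (0.956 to 1.37) and 1.16-fold for C1qc (0.950 to 1.40), with edgeR adjusted p of 0.485, 0.549 and 0.556. In the cortex the corresponding values were 1.06-fold (0.882 to 1.27), 1.16-fold (0.979 to 1.38) and 1.16-fold (0.965 to 1.40), with adjusted p of 0.925, 0.693 and 0.714. All 6 point estimates were above 1, and the intervals of this fit reach 1.43-fold. With mice 8 to 17 alone, which leaves 1 PBS library a tissue, the hippocampal log2 differences were 0.0029 for C1qa, -0.011 for C1qb and -0.033 for C1qc. The cortical ones were 0.17, 0.31 and 0.41. With a covariate for the balance of cortical and hippocampal genes the log2 differences were larger than in the main fit. In the hippocampus they were 0.44 for C1qa (SE 0.18), 0.48 for C1qb (SE 0.15) and 0.47 for C1qc (SE 0.17). The edgeR adjusted p was 0.951 for each. In the cortex they were 0.17 (SE 0.14), 0.34 (SE 0.12) and 0.33 (SE 0.13), with adjusted p of 0.715, 0.397 and 0.447. Except for cortical C1qa, these differences were large beside their SE, though none passed the adjustment over all genes. Of all genes tested 0.133% were called higher in hippocampal pCtrl than in PBS. In the cortex the share was 0%, as neither edgeR nor DESeq2 called any gene, although 1650 genes had an unadjusted edgeR p under 0.05 and 1620 a DESeq2 one.

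**Figure D2:**
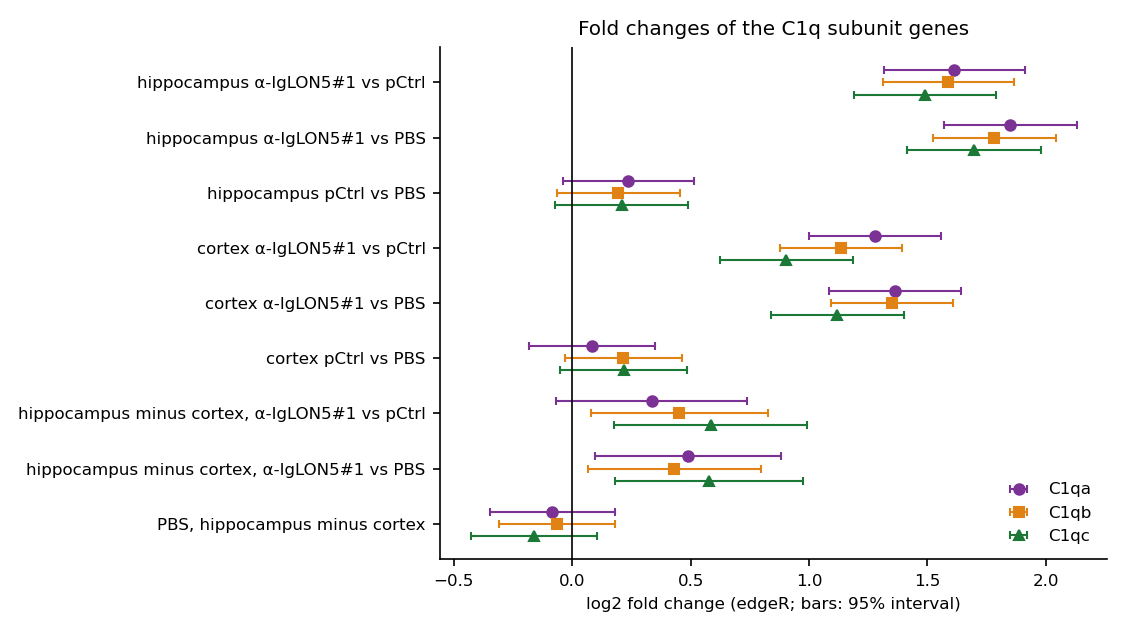
Log2 fold changes (horizontal axis) of the C1q subunit genes for each comparison (vertical axis), with 95% intervals from edgeR, and in the lower rows the tissue differences. The α-IgLON5#1 comparisons lie between 0.90 and 1.85, and the intervals for pCtrl against PBS and for the tissues under PBS include 0. Intervals for the tissue difference of the rise lie above 0, apart from that of C1qa against pCtrl.

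Under PBS the tissues held similar levels of each subunit. The hippocampus differed from the cortex by log2 -0.08 for C1qa, -0.06 for C1qb and -0.16 for C1qc (edgeR adjusted p = 0.713, 0.770 and 0.437), whereas 26.7% of all genes tested differed between the tissues. The rise with α-IgLON5#1 had larger point estimates in the hippocampus. Against pCtrl the hippocampal log2 change exceeded the cortical one by 0.34 for C1qa (SE 0.21), 0.45 for C1qb (SE 0.19) and 0.59 for C1qc (SE 0.21). These differences did not pass the test (edgeR adjusted p = 0.586, 0.385 and 0.288), although the unadjusted p was 0.0255 for C1qb and 0.00938 for C1qc. Against PBS the differences were 0.49, 0.43 and 0.58, with an adjusted p of 1.00 for each. Their unadjusted edgeR p was 0.022 for C1qa, 0.0286 for C1qb and 0.0086 for C1qc. Of all genes tested 0% were called for the tissue difference against pCtrl by edgeR, with 2158 at an unadjusted p under 0.05, while DESeq2 called 6 with a higher log2 change in the hippocampus and 11 with a higher one in the cortex, and 0.00493% were called against PBS. Leaving out the hippocampal library of mouse 9 lowered the differences against pCtrl to 0.09, 0.24 and 0.36 and those against PBS to 0.23, 0.21 and 0.34.

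The order of the groups was the same at its upper end for each subunit. Hippocampal α-IgLON5#1 stood first and cortical α-IgLON5#1 second, with overlapping ranges, and hippocampal PBS stood last. For C1qa the 4 control groups followed from hippocampal pCtrl (49.4 CPM) through cortical pCtrl (47.1 CPM) and cortical PBS (44.5 CPM) to hippocampal PBS (42.0 CPM), and each neighbour overlapped the next. C1qb and C1qc had cortical pCtrl before hippocampal pCtrl. Spread was smallest in cortical PBS, where the coefficient of variation was 3.73% for C1qa, 3.72% for C1qb and 4.15% for C1qc, and largest in hippocampal α-IgLON5#1, at 34.1%, 28.2% and 32.0%.

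Together the subunit transcripts made up 0.0104 to 0.0136% of hippocampal PBS libraries and 0.0312 to 0.0495% of hippocampal α-IgLON5#1 libraries. Per kilobase of coding transcript, mean levels in hippocampal PBS were 40.4 CPM per kb for C1qa, 32.3 for C1qb and 30.0 for C1qc, and in hippocampal α-IgLON5#1 they were 146 ± 49.7, 111 ± 31.3 and 97.5 ± 31.2 CPM per kb (SD, n = 4). Ranked by mean CPM per kb of all annotated exons among 20245 genes, C1qa moved from place 969 in hippocampal PBS to place 169 with α-IgLON5#1, C1qb from 1284 to 238 and C1qc from 2438 to 559. In the cortex C1qa moved from place 965 to 240, C1qb from 1284 to 346 and C1qc from 2254 to 876. C1qc has a further annotated transcript, and with all its exons counted its length is 1931 bases, which lowers its place.

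Since the protein holds equal numbers of each chain, the subunit genes were also set against each other within a library, where the library size cancels. The ratios varied less than the levels. Over the 27 libraries the SD of log2 CPM was 0.74 for C1qa, 0.71 for C1qb and 0.65 for C1qc, whereas the SD of the log2 ratio was 0.12 for C1qa to C1qb, 0.17 for C1qa to C1qc and 0.12 for C1qb to C1qc. The spread of the levels includes the rise with α-IgLON5#1, and within groups the SD was 0.23, 0.21 and 0.23 for the levels and 0.11, 0.12 and 0.09 for these ratios. In the hippocampus the ratio of C1qa to C1qb counts averaged 1.20 ± 0.09 with PBS (SD, n = 5), 1.24 ± 0.04 with pCtrl (n = 4) and 1.24 ± 0.12 with α-IgLON5#1 (n = 4).

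The proportion moved most in the cortex, where C1qc rose least. There the ratio of C1qa to C1qc counts was 1.32 in mouse 8, 1.18 in mouse 9, 1.45 in mouse 16 and 1.30 in mouse 17, against 0.845, 0.967, 1.03, 1.08 and 1.12 in the pCtrl libraries. The groups did not overlap. The difference of mean log2 ratios was 0.39 (two-sided exact permutation p = 0.0159, the smallest this design allows, and 0.111 after adjustment over the 21 ratio tests). Against PBS, at 1.02 to 1.19, the ranges overlapped and the log2 difference was 0.25 (exact permutation p = 0.0317, adjusted 0.167). The ratio of C1qb to C1qc was 1.21, 1.02, 1.02 and 1.02 in the same mice, against 0.833, 0.911, 0.916, 0.919 and 0.981 with pCtrl and 0.853 to 0.951 with PBS. Its log2 difference was 0.23 against either control (exact permutation p = 0.0159, adjusted 0.111). None of the 21 tests passed after adjustment, and 4 had an unadjusted p under 0.05, all with α-IgLON5#1 in the cortex. At the smallest p of this design a ratio passes only where enough other tests of the family lie that low, so the missing calls depend on the family tested. In the hippocampus the C1qa to C1qc ratio differed from pCtrl by 0.12 (exact permutation p = 0.0857, adjusted 0.257).

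**Figure D3:**
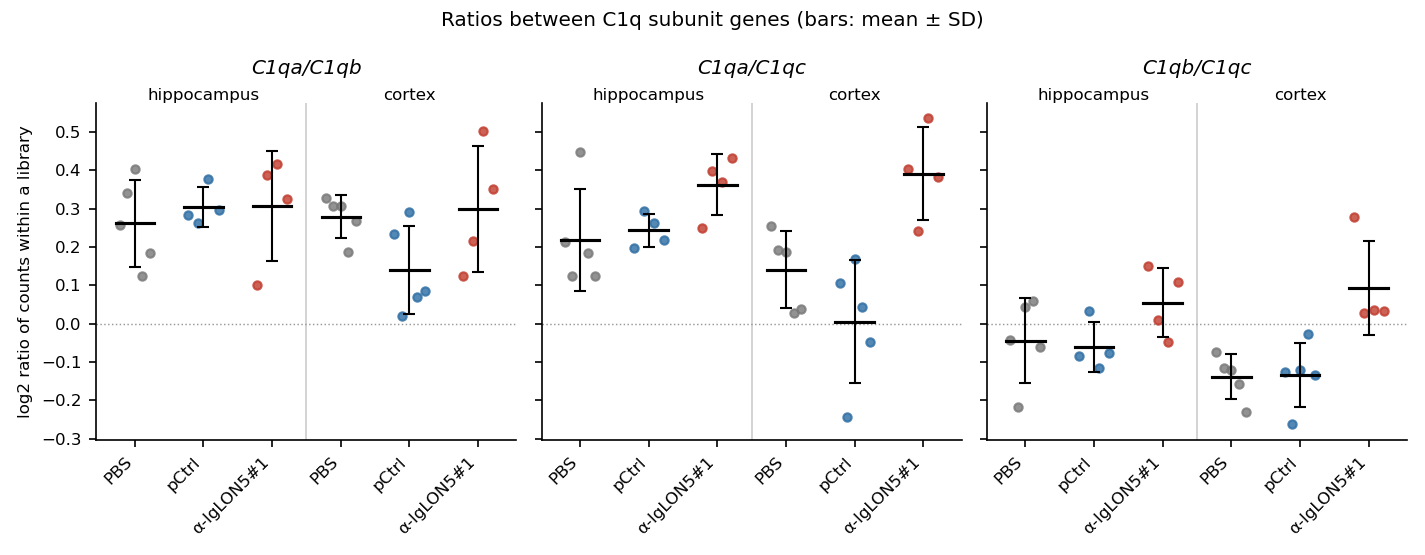
Log2 ratio of the counts of each pair of subunit genes within a library (vertical axis), 1 point a library, by tissue and infusion, with bars for mean ± SD. In the cortex the α-IgLON5#1 points sit higher than every pCtrl point in C1qa/C1qc and C1qb/C1qc, while the groups overlap in C1qa/C1qb.

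Microglia, the resident immune cells of the brain, are the main source of C1q, so the subunits were set against 8 genes of these and other myeloid cells within each library. C1q rose by a larger factor than the genes that mark resting microglia. In the hippocampus against pCtrl, the ratio of C1qa to P2ry12, an ADP receptor of surveying microglia, rose 3.95-fold. The ratios of C1qa to Tmem119, Csf1r (the receptor that sustains microglia) and Cx3cr1 (the fractalkine receptor) rose 1.92, 1.83 and 1.65-fold. Each of these was higher in all 4 α-IgLON5#1 libraries than in any pCtrl library (two-sided exact permutation p = 0.0286, the smallest possible, adjusted 0.0416 over 96 ratio tests). At that p a call depends on how many of the 96 tests lie at or below it.

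The ratio to Tyrobp, the adaptor of activating myeloid receptors, rose 1.24-fold against pCtrl in the hippocampus for C1qa (exact permutation, adjusted p = 0.0416). For Ctss, which encodes the protease cathepsin S, the value was 1.12 against pCtrl (adjusted p = 0.237) and 1.25 against PBS (adjusted p = 0.0317), and in the cortex C1qa to Ctss was called at 1.19 and 1.15 (adjusted p = 0.0317 and 0.0435). For Aif1, the gene of the microglial stain Iba1, it was 0.860 (adjusted p = 0.383). Over the 3 subunits and 8 genes, 18 of 24 ratios were called higher in the hippocampus against pCtrl and 20 of 24 against PBS. In the cortex 16 of 24 were called higher against either control. Not called there was C1qa to Tyrobp, at 1.31 against pCtrl and 1.17 against PBS (exact permutation, adjusted p = 0.0813 and 0.242). Cortical C1qb to Ctss, at 1.07 and 1.13, was not called either (adjusted p = 0.308 and 0.0813). None of the 96 was called lower, and the ratios to Aif1 were never called.

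In the cortex the ratio of C1qa to P2ry12 rose 3.43-fold against pCtrl, and those to Tmem119, Csf1r and Cx3cr1 rose 2.20, 2.06 and 1.82-fold (exact permutation p = 0.0159, adjusted 0.0317 for each). C1qc gave smaller factors for these genes, from 1.39-fold against Cx3cr1 to 2.62-fold against P2ry12. Its ratio to Tyrobp was 1.00 and its ratio to Ctss 0.912, neither of which was called. Its ratio to Aif1 was 0.686 against pCtrl (exact permutation p = 0.0476, adjusted 0.0644) and 0.714 against PBS (adjusted p = 0.119).

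**Figure D4:**
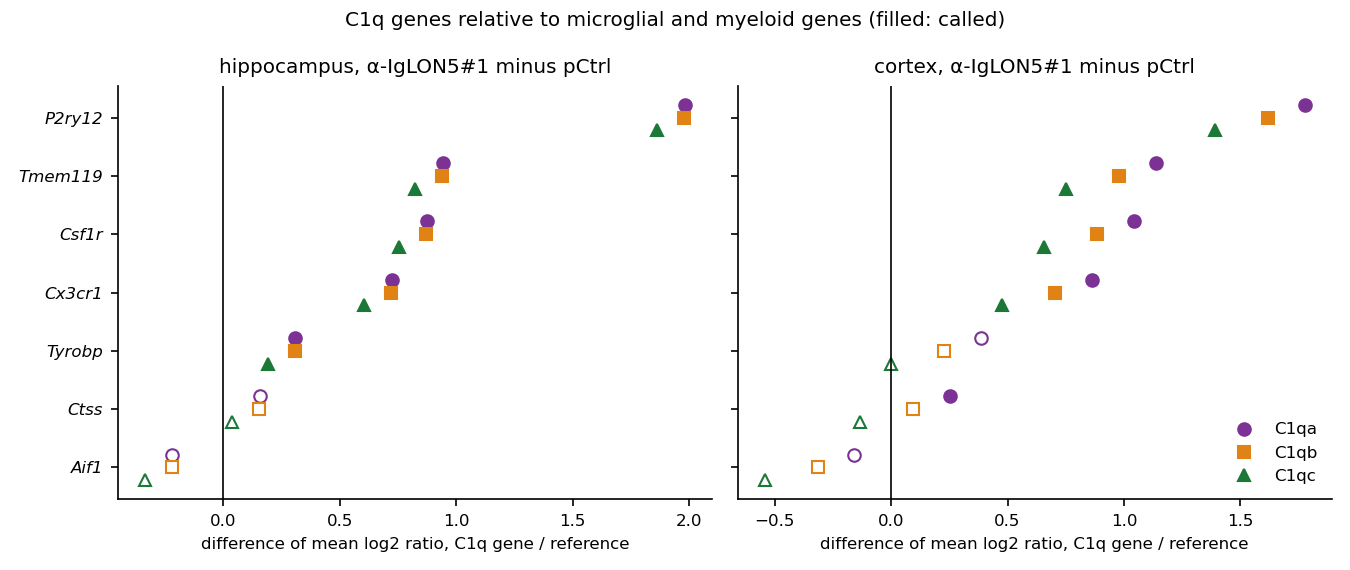
Difference in mean log2 ratio of each C1q gene to each microglial or myeloid gene named in the text, α-IgLON5#1 minus pCtrl (horizontal axis), by reference gene (vertical axis), in hippocampus and cortex. Filled symbols passed an exact permutation test at an adjusted p under 0.05. Ratios to P2ry12 lie farthest to the right and those to Aif1 to the left of 0.

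Among 12 microglial genes, 6 were called higher in the hippocampus against pCtrl, with a list median of 0.50 on the log2 scale beside 0.00 over all genes, and 0 in the cortex, where the median was 0.09. In the cortex 4 of the 12 were higher and 2 lower at an unadjusted edgeR p under 0.05, and DESeq2 called 1 higher. Csf1r, for instance, rose 1.64-fold in the hippocampus (edgeR adjusted p = 0.000113) and was at 1.18-fold in the cortex (adjusted p = 0.241). P2ry12 stood at 0.773-fold and 0.741-fold (adjusted p = 0.241 and 0.213). Of 10 genes shared by myeloid cells at large, 10 were called higher in the hippocampus and 9 in the cortex, with medians of 1.35 and 1.10. Both lists overlap with the 8 genes used in the ratios. Against PBS, 6 of the 12 microglial genes were called higher in the hippocampus and 3 in the cortex, with list medians of 0.62 and 0.17. Of all genes tested 4.23% and 3.01% were called higher against pCtrl, and 3.81% and 2.97% against PBS.

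By the pattern over all 27 libraries, the genes most like the subunits were sought among 13617 genes, by the root mean square difference of centred log2 CPM. C1qb was the closest gene to C1qa and to C1qc, and C1qa and then C1qc were the closest to C1qb. Between C1qa and C1qc other genes came nearer, Ctss to C1qa (0.162) and Unc93b1 (0.128) and Tyrobp (0.144) to C1qc. C1qa and C1qb differed by 0.12, C1qb and C1qc by 0.12 and C1qa and C1qc by 0.17. The 10 other genes nearest to the mean of the subunits were Ctss (0.13), Unc93b1 (0.13), Cd86 (0.16), Tyrobp (0.17), B2m (0.17), Pld4 (0.19), Ncf1 (0.19), Csf3r (0.19), Itgb2 (0.19) and Il21r (0.19). Of these, 8 recurred among the nearest 10 in the hippocampal libraries alone and 7 in the cortical ones. Unc93b1 carries Toll-like receptors to endosomes, B2m is the light chain of MHC class I, and Itgb2 is the β2 chain of the integrin that forms complement receptor 3 with Itgam. Unc93b1 stood at 2.57-fold in the hippocampus and 2.0-fold in the cortex against pCtrl, and Itgb2 at 3.40-fold and 2.36-fold. These genes were chosen for their likeness to C1q over the same libraries, so their values are a description with no test.

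Downstream of C1q the pathway genes moved unevenly. Of 8 tested genes for C1r, C1s and the later components and inhibitor of the classical pathway, 3 were called higher in the hippocampus against pCtrl and none lower, with a list median of 0.85 on the log2 scale. C3, whose cleavage is the common step of all complement pathways, was at 31.3 ± 14.8 CPM with α-IgLON5#1 and 0.630 ± 0.669 CPM with pCtrl (SD, n = 4 each), a 47.2-fold rise (edgeR adjusted p = 1.00e-06). C4b, the C4 gene, rose 2.67-fold from 60.1 to 161 CPM (edgeR adjusted p = 0.00123). C1ra, which encodes a C1r protease, rose 3.29-fold to 4.04 CPM (edgeR adjusted p = 0.00497). C4b, C1ra and C1s1 have near-identical neighbours, C4a, C1rb and C1s2, with which reads can be shared, so the split between copies is uncertain. C4a stood at 1.29-fold (edgeR adjusted p = 0.405).

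C1s1, the gene of a C1s protease, reached 2.44-fold without passing (edgeR adjusted p = 0.0690), and C2 stood at 1.16-fold (adjusted p = 0.712). Serping1, which encodes the C1 inhibitor, stood at 1.34-fold (edgeR adjusted p = 0.570). In the cortex 2 of the 8 were called against pCtrl, C3 at 34.3-fold and C4b at 3.0-fold (edgeR adjusted p = 4.95e-06 and 0.000235), and C1ra stood at 1.76-fold (adjusted p = 0.225). Against PBS, C1ra, C4b and C3 were called in both tissues.

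Of 8 tested genes of C1q receptors and binding partners, 1 was called higher and 1 lower in the hippocampus against pCtrl, and 0 and 1 in the cortex. Over the 20271 genes, 857 were called higher and 563 lower in the hippocampus and 610 and 91 in the cortex. Lair1, an inhibitory receptor for collagen and C1q, rose 1.56-fold in the hippocampus against pCtrl (edgeR adjusted p = 0.0232) and was at 1.18-fold in the cortex (adjusted p = 0.519). Cd209b was lower than with pCtrl in both tissues, at 0.0200 against 0.249 CPM in the hippocampus and 0.0421 against 0.276 CPM in the cortex (edgeR adjusted p = 0.0224 and 0.0311). These levels are near the floor. At such means an α-IgLON5#1 library holds fewer than the 10 counts of the filter, so Cd209b was tested only through control libraries. Cd209b was at 0.0910 and 0.176 CPM with PBS, from which α-IgLON5#1 did not differ past the test (edgeR adjusted p = 0.365 and 0.198). Calr, C1qbp and Lrp1 stood between 0.975 and 1.06-fold in both tissues.

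The rise in the subunits was not seen across genes that share the globular C1q domain. Of 22 such genes tested, among them cerebellins and C1q/TNF-related genes, 0 were called higher against pCtrl in either tissue by edgeR, and 1 was called lower in each. Over all 20271 genes 4.23% and 3.01% were called higher, and 563 and 91 genes lower. Counts among 22 genes therefore cannot set the list apart from all genes. The gene called lower was Cbln4 in the hippocampus, at 0.407-fold (edgeR adjusted p = 0.0268), and Cbln3 in the cortex, at 0.160-fold (adjusted p = 0.0273). Against PBS neither was called, with Cbln4 at 1.12-fold (edgeR adjusted p = 0.895) and Cbln3 at 0.805-fold (adjusted p = 0.967). Mean Cbln4 was 43.2 ± 20.5 CPM in hippocampal pCtrl and 15.7 ± 7.04 in PBS, and mean Cbln3 was 3.82 ± 6.14 CPM in cortical pCtrl and 0.762 ± 0.381 in PBS (SD). At an unadjusted p under 0.05, 1 was higher and 6 lower in the hippocampus and 1 higher and 4 lower in the cortex, while DESeq2 called 0 and 1 higher and 1 lower in each. The median log2 changes of the 22 genes were -0.10 and 0.09.

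**Figure D5:**
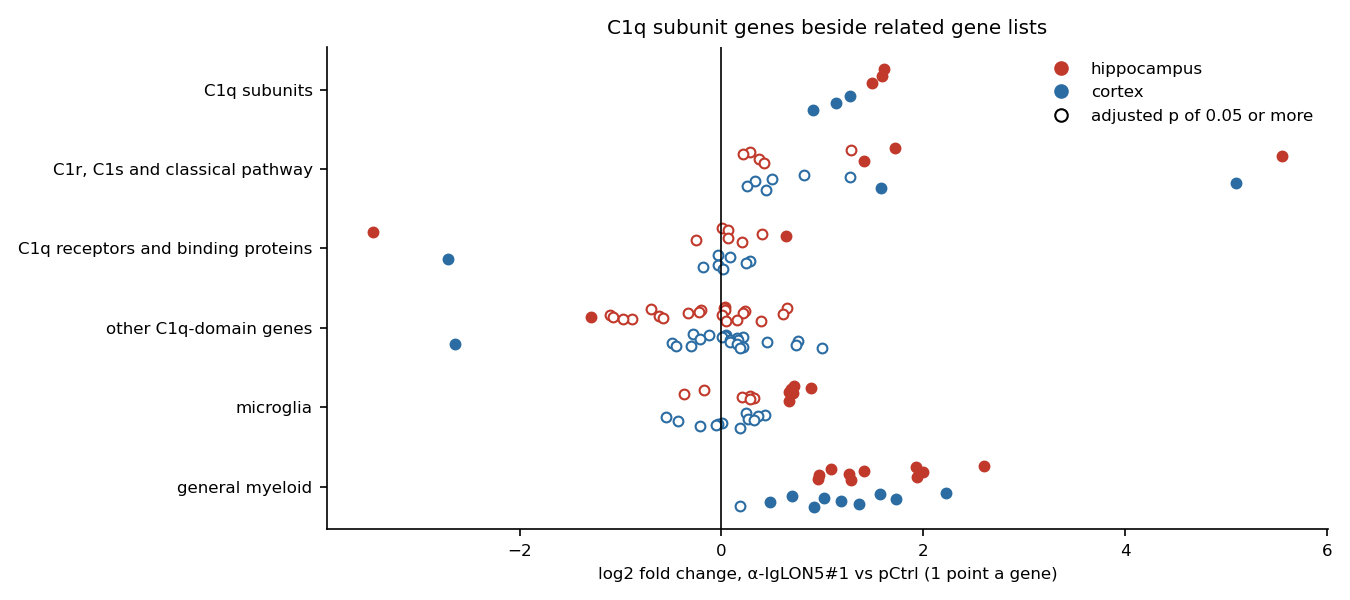
Log2 fold change of α-IgLON5#1 against pCtrl (horizontal axis) for each gene tested in 6 lists (vertical axis), hippocampus in red and cortex in blue. Filled points have an edgeR adjusted p under 0.05. The C1q subunit points lie between 0.90 and 1.61, and C3 is the point beyond 5 in the row of the classical pathway.

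Markers of cells that enter from the blood or line the brain's borders were examined beside the subunits. The summed level of 6 B and plasma cell genes was 0.809 to 1.79 CPM in hippocampal pCtrl and 6.36 to 88.0 CPM in hippocampal α-IgLON5#1, and 5 of 5 tested were called higher. In the cortex the sums were 1.13 to 1.53 CPM and 6.28 to 34.1 CPM, and 3 of 5 were called. The sum of 8 monocyte and neutrophil genes was 2.82 to 6.58 CPM in hippocampal pCtrl and 3.77 to 26.7 CPM with α-IgLON5#1, with 1 of 8 called, and in the cortex 2.23 to 5.69 and 3.52 to 41.3 CPM, with 4 of 8 called. No marker of either list was at 0 in every library of a group. The 8 border macrophage genes gave overlapping sums, with Ms4a7 called higher and Lyve1 lower in both tissues. Their part in the C1q result was not tested.

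Among the α-IgLON5#1 mice the marker sums ranked in different ways. Mouse 9 had the highest summed C1q level in both tissues, at 560 CPM in the hippocampus and 357 in the cortex, where the others had 299 to 397 and 271 to 283 CPM. The same mouse had the lowest B and plasma cell sums, at 6.36 and 6.28 CPM, and the lowest border macrophage sums, at 38.8 and 28.1 CPM. Mouse 8 had the highest monocyte and neutrophil sums, at 26.7 and 41.3 CPM, with C1q sums of 299 and 283 CPM. The sums of the 12 microglial genes in the hippocampus followed the order of C1q, at 863, 696, 533 and 517 CPM in mice 9, 16, 17 and 8. In the cortex they did not, and mouse 16 was highest at 548 CPM. Mouse 9 also had the highest sum of the general myeloid genes in both tissues, at 629 and 444 CPM.

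The makeup of the dissected tissue was examined by 5 genes of cortical neurons. Summed, they held 209 to 323 CPM in hippocampal pCtrl libraries, 142 to 228 CPM in PBS and 143 to 224 CPM in α-IgLON5#1 libraries, with 1 of 5 called lower against pCtrl. At an unadjusted edgeR p under 0.05, 4 of the 5 were lower, and DESeq2 called 2 lower. In hippocampal pCtrl against PBS, DESeq2 called 3 of the 5 higher and edgeR called 0. With a covariate for the balance of cortical and hippocampal genes in the fit, the hippocampal log2 changes against pCtrl were 1.41 for C1qa, 1.32 for C1qb and 1.24 for C1qc, and all stayed called (edgeR adjusted p = 6.59e-05, 1.75e-05 and 0.000203). Against PBS they were 1.86, 1.79 and 1.71 in that fit. Among astrocyte genes Gfap rose 2.48-fold in the hippocampus and 2.75-fold in the cortex against pCtrl, and 1 of 5 was called in each tissue.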

How the data were processed

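The authors aligned paired-end reads from TruSeq Stranded mRNA libraries to GRCm38 with STAR and deposited a table of raw counts per gene for the 27 libraries. The counting program, the annotation and the strand setting are not given in the sources used here. Symbols, positions and lengths were taken from GENCODE M21 by gene ID, and 55227 of 55487 IDs matched without the version.

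The filter on low counts required 10 or more counts in 4 or more libraries and left 20271 genes. The counts were TMM-normalised and fitted in edgeR 4.0.16 (R 4.3.3) with 1 mean per group of tissue and infusion, using quasi-likelihood F tests. DESeq2 1.42.0, other scalings, filters, sets of libraries and a replicate block were alternatives. Within-library log2 ratios of counts were compared by exact permutation tests (Python 3.11.15, scipy 1.17.1) without a pseudocount. The counts of ratios cover 8 reference genes, of which 1 is not reported here by itself. The edgeR step was tested on simulated counts. Library totals ranged from 19385642 to 58550621. No pair of libraries within a group agreed within sampling noise (over the 48 pairs, chi-square divided by its degrees of freedom was 4.82 or more).

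The genes named are the members, the genes of the related lists that passed the test or define a list, and the 10 genes nearest to the members' mean pattern. The members and lists were chosen with earlier results of these data known.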

Additional observations from a re-analysis of the deposited data

Results flagged for a closer look

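In groups of 4 or 5 libraries, 36 sets of member levels and subunit ratios were examined for a library far from the rest of its group, and chance alone marks about 1 in 20 such sets. In the cortex with α-IgLON5#1, C1qc was at 111 CPM in mouse 9, apart from the other 3 libraries at 78.1 to 81.7 CPM. In hippocampal PBS the ratio of C1qa to C1qc counts was 1.36 in mouse 33, with the others at 1.09 to 1.16. In the cortex with α-IgLON5#1 the ratio of C1qb to C1qc was 1.21 in mouse 8, with the others at 1.02. No library was left out for this.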

How the results depend on the processing

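With mice 8 to 17 alone the hippocampal calls against PBS were lost at log2 changes of 1.60, 1.52 and 1.44 for C1qa, C1qb and C1qc, the cortical calls against pCtrl at 1.16, 1.06 and 0.79 and those against PBS at 1.33, 1.36 and 1.20. That setting has 1 PBS library a tissue, which is assumed to vary like the other groups, and it also turned the uncalled difference of hippocampal pCtrl from PBS to -0.011 for C1qb and -0.033 for C1qc. Hippocampal calls against pCtrl were kept under each of the 8 alternatives run beside leaving out libraries, with log2 changes of 1.24 to 1.62. Leaving out 1 library at a time kept every call for the members. In these fits C1qa in cortical pCtrl against PBS ran from -0.0050 to 0.15, with the lowest value without mouse 15. Under DESeq2, RLE size factors, library totals alone, both filters, a fit to the compared groups only and the tissue covariate, no call for a member changed.

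Treatments differ between mice, so a replicate block bears only on the tissue differences. With the mouse number as a block the differences of the rise against pCtrl were 0.27, 0.39 and 0.47 for C1qa, C1qb and C1qc (edgeR adjusted p = 0.472, 0.316 and 0.312), those against PBS 0.44, 0.42 and 0.55 (adjusted p = 0.969 each) and the tissue differences under PBS -0.09, -0.07 and -0.17, and no call changed. Deviations of same-numbered libraries from their group means correlated at -0.05 to 0.44 (median 0.19), above 0.1 in 8 of 13 mice, so the numbers are not shown to pair the libraries. The block gave 2 calls over all genes for each tissue difference, in place of 0 against pCtrl and 1 against PBS.

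Counts of calls over all genes moved as well. Hippocampal pCtrl against PBS had 27 genes higher and 12 lower by edgeR and 257 and 236 by DESeq2, cortical α-IgLON5#1 against pCtrl had 91 and 204 lower, and with mice 8 to 17 alone 55 genes were higher in the hippocampus against pCtrl, in place of 857, and 10 in the cortex, in place of 610. The number of subunit ratios past the threshold (0 of 21) and of ratios to microglial and myeloid genes (70 of 96) was the same with 1 count added to each gene, which can hardly move ratios at the members' counts and is no sign of stability. Ratios without 1 library or with mice 8 to 17 alone were computed as values with no test.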
